A study of Arabidopsis thaliana with 12 samples.

Results

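The Calvin cycle and the photorespiratory pathway were followed through 37 genes chosen by the enzyme or regulator they encode, 23 for the Calvin cycle and 14 for photorespiration. Of these, 30 were measured among the 21461 probe sets tested, 19 for the Calvin cycle and 11 for photorespiration. The 4 genes of the Rubisco small subunit (RBCS1A, RBCS1B, RBCS2B and RBCS3B), phosphoglycolate phosphatase (PGLP1) and the glycolate oxidases GOX1 and GOX2 were not analysed here. The carboxylation step itself and the entry of photorespiration are therefore missing from what follows.

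The Calvin cycle fixes carbon dioxide in the chloroplast stroma. Rubisco makes phosphoglycerate, phosphoglycerate kinase and the plastid glyceraldehyde phosphate dehydrogenase reduce it with ATP and NADPH, and a network of aldolases, phosphatases, transketolase and isomerases rebuilds the acceptor. Rubisco also reacts with oxygen, and photorespiration salvages the resulting phosphoglycolate through the chloroplast, the peroxisome and the mitochondrion, where glycine decarboxylase releases carbon dioxide and ammonia. When leaves close their stomata in dry soil, internal carbon dioxide drops and oxygenation gains relative to carboxylation.

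RNA came from young leaves of Arabidopsis thaliana, ecotype Columbia, grown in peat pellets at 22 °C under 10 h of light, and was hybridised to 12 Affymetrix ATH1 arrays. In the moderate treatment, watering stopped 30 days after sowing and soil moisture was kept at 30% of field capacity, and leaves were sampled after 1 day and again on day 10. For progressive drought, watering stopped 35 days after sowing and leaves were sampled when plants first wilted. Each drought group had a well-watered control group of its own, each group had 2 arrays, and each array held RNA pooled from 5 plants. The labels call these biological replicates, and with 2 pools in a group their number limits the precision of every value. Values are log2 expression values, and changes are log2 differences of drought minus control. The error after each ± sign is the standard error of the fit with n = 2 arrays a group. That fit takes 1 spread per probe set from all 12 arrays and assumes it equal in every group. A member therefore has the same error in each comparison of drought with control.

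Replicate arrays correlated across probe sets between 0.964 and 0.997. Replicates spread more in the progressive set, in control and drought alike. Their root mean square standard deviation over probe sets was 0.314 for the progressive controls and 0.369 for progressive drought, against 0.123 to 0.21 in the other groups. With the spread taken as equal, the errors and adjusted p can be too small for progressive drought, and too large for day 1. The 3 sets of 4 arrays had been normalised apart, so no level is compared across sets. The labelled tissue was checked with 4 measured marker genes of leaf mesophyll, whose mean level lay between 13.02 and 13.20 on the control arrays, near the top of the scale. The members are bright as well: 24 to 28 of the 30 lay in the top 5% of values on each array. Rubisco activase (RCA) was 0.64 to 1.55 log2 units below the brightest probe set of its array and GAPA was 0.48 to 1.41 below it, a range in which arrays can compress differences.

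On day 1 of moderate drought the levels of both pathways lay close to those of the control. The median change was −0.07 for the 19 Calvin cycle members and 0.00 for the 11 photorespiration members, against 0.01 for all probe sets. By limma, 0 of the 30 members were called at an adjusted p under 0.05, where 0.00466% of all probe sets fell and 0.014% rose. An unadjusted p under 0.05 was reached by 2 members, the peroxisomal aminotransferase GGT1 and the phosphoglycerate kinase gene AT1G56190, as it was by 1865 of the 21461 probe sets. The 4 arrays of day 1 fitted alone, in which 108 probe sets rose and 79 fell, called 0 members too.

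On day 1, 15 of 19 Calvin cycle members were below 0, against 46.9% of all probe sets. Drought replicate 2 read higher than replicate 1 for 17 of the 19, and without replicate 1 their median was 0.01, against −0.18 without replicate 2. AT1G56190 (AT1G56190_at), of the phosphoglycerate kinase family, which phosphorylates phosphoglycerate at the start of the reduction phase, had values of 9.90 and 9.85 on the control arrays and 9.50 and 9.48 on the drought arrays. The arrays did not overlap, and the difference was −0.39 ± 0.17 (adjusted p = 0.565). The plastid ribose phosphate isomerase RPI (AT3G04790_at, listed in RefSeq as EMB3119), which feeds pentose phosphates to the regeneration phase, went from 11.46 and 11.38 to 11.09 and 10.99, a difference of −0.38 ± 0.22 (adjusted p = 0.68). Both drought arrays lay below both control arrays for 8 Calvin cycle and 3 photorespiration members, a pattern seen in 22.9% of all probe sets.

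The 3 measured peroxisomal members of photorespiration had higher values on both drought arrays of day 1 than on both controls. GGT1 (AT1G23310_at), the glutamate:glyoxylate aminotransferase that makes glycine, read 11.13 and 11.17 in control and 11.43 and 11.44 in drought, a difference of 0.29 ± 0.09 (adjusted p = 0.391). AGT (AT2G13360_at), the serine:glyoxylate aminotransferase, read 11.85 and 11.72 against 12.04 and 12.17, and HPR (AT1G68010_at), the peroxisomal hydroxypyruvate reductase, read 11.82 and 11.83 against 11.92 and 12.01. Their differences, 0.32 ± 0.25 and 0.14 ± 0.18, did not pass the test either, at adjusted p of 0.785 and 0.902. In all, 3 Calvin cycle and 4 photorespiration members had both drought arrays above both controls, against 26.6% of all probe sets. The 3 Calvin cycle members were the plastid aldolase FBA3 at 0.22, the ribulose phosphate epimerase RPE at 0.23 and CP12-3 at 0.20, and the other photorespiration member was GLDP1 at 0.05. None of these was called.

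**Figure D1:**
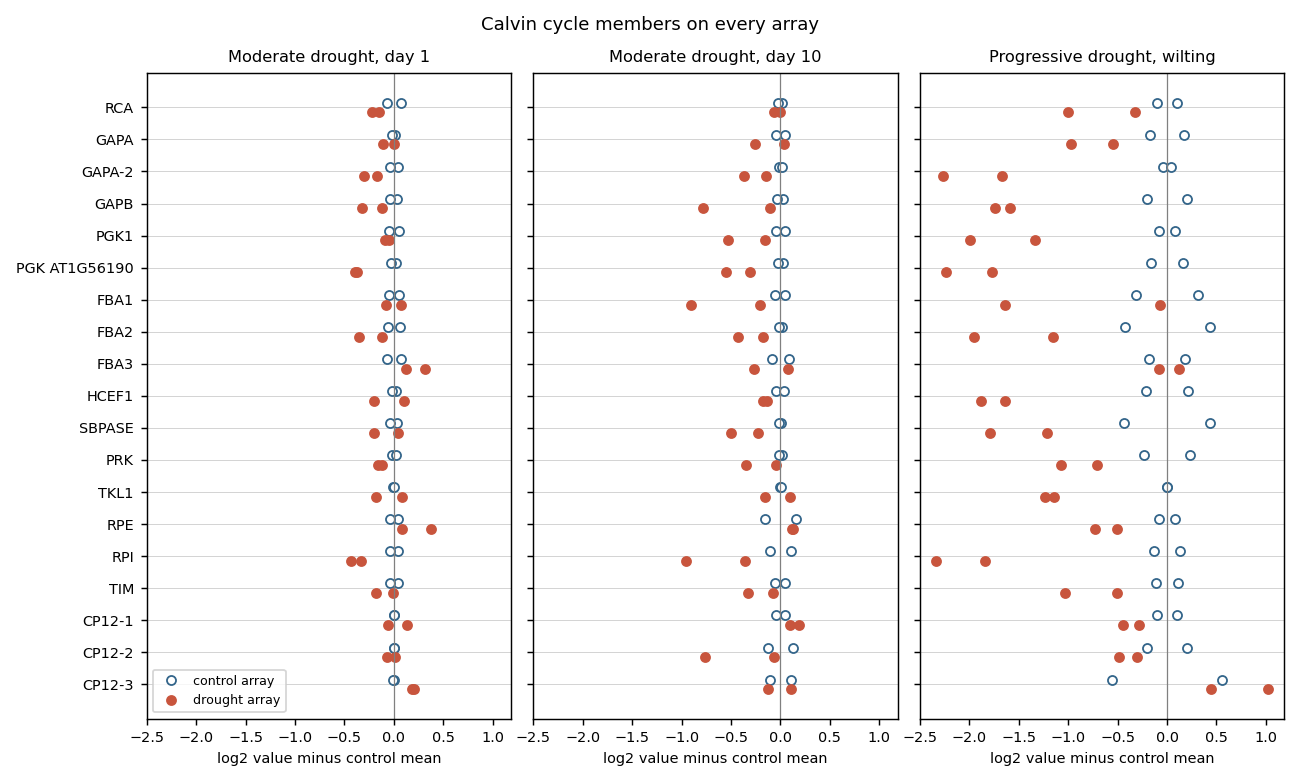
Log2 value of each of the 19 measured Calvin cycle members minus its control mean (x axis, log2 units) on the control arrays (open circles) and drought arrays (filled circles) of the 3 comparisons, 2 arrays per group. On day 1 and day 10 the drought arrays lie near the controls, and in progressive drought both drought arrays lie below both controls for 16 members and overlap them for FBA1, FBA3 and CP12-3.

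On day 10 the values of both pathways lay below those of the control for most members, by amounts that did not pass the test. The median was −0.20 for the Calvin cycle and −0.22 for photorespiration, against 0.02 for all probe sets, and 17 of 19 and 10 of 11 members were below 0, against 45.2% of all. By limma 0 of the 30 members were called, where 0.0606% of all probe sets fell and 0.0466% rose, and 3 members had an unadjusted p under 0.05, as 2238 of the 21461 probe sets had. Both drought arrays lay below both controls for 11 Calvin cycle and 6 photorespiration members, against 18.9% of all probe sets, and above them for 1 Calvin cycle and 0 photorespiration members, against 25.7%.

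RPI had the lowest values relative to its control on day 10, at 9.62 and 10.22 in drought against 10.47 and 10.68, a difference of −0.66 ± 0.22 (adjusted p = 0.316). AT1G56190 read 8.64 and 8.89 against 9.22 and 9.17 (−0.42 ± 0.17, adjusted p = 0.418). GLYK (AT1G80380_at), listed as glycerate kinase, which returns the salvaged carbon to the chloroplast as phosphoglycerate, read 8.86 and 9.17 against 9.41 and 9.32 (−0.36 ± 0.14, adjusted p = 0.431). These were the 3 members with an unadjusted p under 0.05, and in each the drought arrays were apart from the controls. Of the mitochondrial photorespiration members, 6 of 6 were below 0, between −0.44 for GLDP2 and −0.15 for SHM1, and 0 were called. The peroxisomal members were close to 0, at 0.01 for GGT1, −0.04 for AGT and −0.10 for HPR. CP12-1, which binds and inhibits glyceraldehyde phosphate dehydrogenase and phosphoribulokinase in the dark, was the Calvin cycle member with both drought arrays above the controls, at 0.14 ± 0.11 (adjusted p = 0.776).

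The day 10 values rest unequally on the 2 drought pools. Replicate 2 read higher than replicate 1 for 17 of 19 Calvin cycle and 11 of 11 photorespiration members, against 46.4% of all probe sets, with median gaps of 0.25 and 0.30. Without drought replicate 1 the medians were −0.11 and −0.04, and without drought replicate 2 they were −0.35 and −0.42. A clock index was taken as the mean level of 7 genes that peak near dawn less the mean of 7 that peak near dusk. It was −0.34 on drought replicate 1 and −1.24 on replicate 2, against −1.18 and −1.30 on the controls. The time of day of sampling is not given in the labels, and the part of these index values in the members' differences was not tested.

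**Figure D2:**
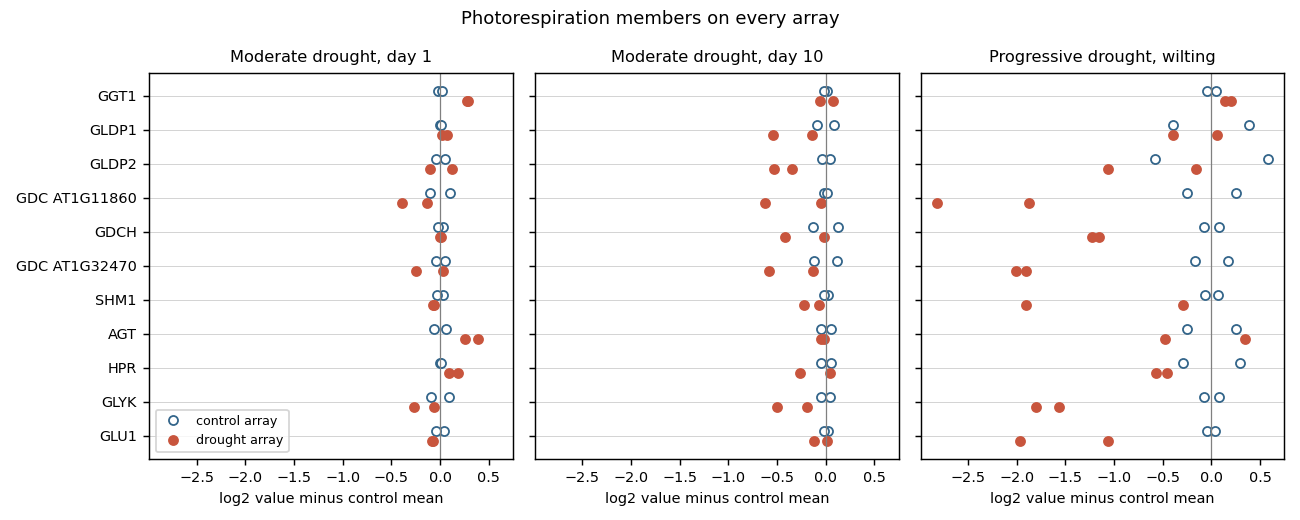
Log2 value of each of the 11 measured photorespiration members minus its control mean (x axis, log2 units), on control arrays (open circles) and drought arrays (filled circles), 2 arrays per group. In progressive drought GDCH, the glycine decarboxylase genes AT1G11860 and AT1G32470, GLYK and GLU1 sit far below their controls. GLDP1 and AGT overlap theirs, and both GGT1 drought arrays lie slightly above both controls.

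At the first wilting of progressive drought, transcripts of both pathways were lower, and the number that fell varied from step to step. By limma, 20 of the 30 members fell and 0 rose, where 14.5% of all probe sets fell and 12.5% rose. The Calvin cycle had 15 of 19 members that fell and a median of −0.89, and photorespiration had 5 of 11 and a median of −1.10, against 0.00 for all probe sets. Whether the pathways differed from each other was not tested. Both drought arrays lay below both controls for 16 Calvin cycle and 7 photorespiration members, against 27.5% of all probe sets, and above them for 1 photorespiration member, GGT1, against 27.1%. In whole leaves, fewer cells of a type and less RNA per cell cannot be told apart.

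In the reduction phase 5 of 5 members fell, with a median of −1.67. AT1G56190 read 9.57 and 9.89 on the control arrays and 7.49 and 7.96 on the drought arrays, a fall of 4.01-fold (SE 0.17 on the log2 scale, adjusted p = 5.0e-05). PGK1 (AT3G12780_at), another phosphoglycerate kinase gene, read 11.57 and 11.40 against 9.49 and 10.15, a fall of 3.18-fold (−1.67 ± 0.20, adjusted p = 3.9e-04). In both genes the drought arrays lay over 1 log2 unit below the lower control. The dehydrogenase of the chloroplast is built from A and B subunits. GAPB (AT1G42970_at), the B subunit, read 12.18 and 12.59 against 10.80 and 10.64, a fall of 3.18-fold (−1.67 ± 0.21, adjusted p = 4.9e-04).

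The estimated falls of the A subunit genes were unlike in size. GAPA-2 (AT1G12900_at) read 12.01 and 12.09 in control and 10.38 and 9.78 in drought, a fall of 3.92-fold (−1.97 ± 0.18, adjusted p = 6.9e-05). GAPA (AT3G26650_at), the brighter probe set, read 13.06 and 13.40 against 12.68 and 12.26, a fall of 1.69-fold (−0.76 ± 0.17, adjusted p = 0.0096). Within each array the value of GAPA minus that of GAPA-2 was 1.05 and 1.31 in control and 2.30 and 2.49 in drought, a shift of 1.21. A two-sided exact permutation test gave p = 0.333, the smallest that 2 arrays against 2 allow, so it cannot pass the threshold (Benjamini-Hochberg adjusted p = 0.5 over the 33 shifts computed). The transcripts are close in sequence, and how much each probe set reads the other gene is uncertain. GAPA also lay near the top of the scale, where arrays can compress differences. The GAPA call was lost without control replicate 2, at −0.58 (adjusted p = 0.0661), and under cyclic loess scaling, at −0.29 (adjusted p = 0.237).

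RCA (AT2G39730_at), the activase that frees Rubisco from inhibitory sugar phosphates, read 13.03 and 13.24 in control and 12.81 and 12.13 in drought, a fall of 1.59-fold (−0.67 ± 0.19, adjusted p = 0.0305). Drought replicate 1 was much nearer the controls than replicate 2. Without replicate 1 the difference was −1.01 (adjusted p = 6.6e-04), and without replicate 2 it was −0.32 and no longer called (adjusted p = 0.0958). The call was also lost without control replicate 2 (−0.56) and under cyclic loess (−0.20, adjusted p = 0.52). Leaving out any single day 1 array, or any single day 10 control array, lost it too, with the value still at −0.67.

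In the regeneration phase 8 of 10 members fell, with a median of −1.04. RPI fell the most, from 10.40 and 10.67 to 8.69 and 8.20, or 4.25-fold (−2.09 ± 0.22, adjusted p = 1.6e-04). The plastid fructose bisphosphatase HCEF1 (AT3G54050_at) read 11.10 and 11.53 against 9.68 and 9.43, a fall of 3.38-fold (−1.76 ± 0.16, adjusted p = 7.8e-05). Both genes had drought arrays well below the controls, as did SBPASE (AT3G55800_at), the sedoheptulose bisphosphatase that commits carbon to regeneration. SBPASE read 10.98 and 11.85 in control and 10.20 and 9.62 in drought, a fall of 2.83-fold (−1.50 ± 0.28, adjusted p = 0.00342), with controls further apart than the drought arrays. TKL1 (AT3G60750_at), transketolase, read 11.72 and 11.72 against 10.49 and 10.58, a fall of 2.27-fold with the smallest replicate gaps among these genes (−1.18 ± 0.12, adjusted p = 1.2e-04).

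PRK, TIM and RPE fell by less than 1 log2 unit. PRK (AT1G32060_at), phosphoribulokinase, which makes the carbon dioxide acceptor, read 11.91 and 12.37 against 11.43 and 11.07 and fell by 0.89 ± 0.17 (adjusted p = 0.0049), and by 0.54 under cyclic loess. TIM (AT2G21170_at), the plastid triose phosphate isomerase, read 10.30 and 10.53 against 9.38 and 9.91 and fell by 0.77 ± 0.18 (adjusted p = 0.0109). RPE (AT5G61410_at), the ribulose phosphate epimerase, read 11.65 and 11.82 against 11.23 and 11.01 and fell by 0.61 ± 0.15 (adjusted p = 0.0132). The TIM call was lost without control replicate 2 (−0.65, adjusted p = 0.0688), and its value was −0.50 (adjusted p = 0.0452) without drought replicate 1. The RPE call was lost without control replicate 2 (−0.53, adjusted p = 0.0795), without drought replicate 2 (−0.50, adjusted p = 0.0604) and under cyclic loess (−0.29, adjusted p = 0.14), and with array weights too.

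The plastid aldolases, which join triose phosphates, gave unlike values. FBA2 (AT4G38970_at) read 12.42 and 13.28 in control and 11.70 and 10.90 in drought, a fall of 2.93-fold (−1.55 ± 0.30, adjusted p = 0.00483). FBA3 (AT2G01140_at, listed in RefSeq as PDE345) read 7.38 and 7.75 against 7.48 and 7.69, a difference of 0.02 ± 0.17 (adjusted p = 0.966), and its arrays overlapped. Within each array FBA2 minus FBA3 was 5.04 and 5.53 in control and 4.23 and 3.21 in drought, a shift of −1.57. FBA1 (AT2G21330_at) read 10.83 and 11.45 against 11.07 and 9.50, so drought replicate 1 lay between the controls and replicate 2 below both. Its difference was −0.86 ± 0.45 (adjusted p = 0.215), and −1.65 (adjusted p = 0.00454) without drought replicate 1.

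The CP12 proteins, which dock the dehydrogenase and phosphoribulokinase into an inactive complex, had 1 of 3 members called. CP12-1 (AT2G47400_at) read 12.23 and 12.02 in control and 11.68 and 11.84 in drought, a fall of 1.29-fold (−0.37 ± 0.11, adjusted p = 0.0409). CP12-2 (AT3G62410_at) read 11.11 and 10.71 against 10.42 and 10.61, a difference of −0.39 ± 0.22 (adjusted p = 0.251). CP12-3 (AT1G76560_at) had control arrays 1.13 apart, with a mean of 6.44, and drought values of 6.88 and 7.46. Drought replicate 1 lay between the controls and replicate 2 above both, and the difference was 0.73 ± 0.32 (adjusted p = 0.138). The CP12-1 call was kept in 6 of the 20 alternative fits. Its value was 0.01 (adjusted p = 0.975) under cyclic loess. Among the other fits without a call were those with array weights, median centring or a trended robust spread. So were those without control replicate 1 (−0.26) or without drought replicate 1 (−0.28). Leaving out any single day 1 control array, or any single day 10 array, also lost the call, with the value still at −0.37. Without control replicate 1, CP12-3 was at 1.29 (adjusted p = 0.00423).

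In photorespiration, 0 of the 3 peroxisomal members were called in progressive drought, and 1 of these had an unadjusted p under 0.05. GGT1 read 11.47 and 11.38 in control and 11.56 and 11.63 in drought, a difference of 0.17 ± 0.09 (adjusted p = 0.211), and 0.50 with a call (adjusted p = 0.00325) under cyclic loess. AGT read 11.71 and 12.22 against 12.31 and 11.49, so its drought arrays lay on opposite sides of the controls and the difference was −0.06 ± 0.25 (adjusted p = 0.923), or 0.31 (adjusted p = 0.412) under cyclic loess. HPR read 11.56 and 12.14 against 11.39 and 11.28, a difference of −0.52 ± 0.18 (adjusted p = 0.0624). Both HPR drought arrays were below both controls, and without control replicate 1 the difference was −0.81 (adjusted p = 0.0049).

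The glycine decarboxylase complex of the mitochondrion is assembled from P, T, H and L proteins, and its genes separated widely. AT1G11860 (AT1G11860_at), of the glycine decarboxylase genes, read 10.80 and 11.31 in control and 9.18 and 8.24 in drought, a fall of 5.08-fold and the largest among the members (−2.34 ± 0.31, adjusted p = 6.0e-04). AT1G32470 (AT1G32470_at), of the same complex, read 10.92 and 11.26 against 9.08 and 9.19, a fall of 3.89-fold (−1.96 ± 0.18, adjusted p = 8.3e-05). Both were far below their controls on both arrays. GDCH (AT2G35370_at), an H protein, which carries the aminomethyl group between the other subunits, read 11.30 and 11.14 against 9.99 and 10.07, a fall of 2.28-fold (−1.19 ± 0.14, adjusted p = 3.6e-04).

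The P protein genes, which encode the decarboxylating subunit, were not called. GLDP1 (AT4G33010_at) read 11.61 and 12.39 in control and 12.06 and 11.61 in drought, overlapping throughout, at −0.17 ± 0.25 (adjusted p = 0.736) and at 0.21 (adjusted p = 0.62) under cyclic loess. GLDP2 (AT2G26080_at) read 9.40 and 10.56 against 9.82 and 8.92, at −0.61 ± 0.37 (adjusted p = 0.292), and at −1.18 (adjusted p = 0.0253) without control replicate 1. Within each array GLDP1 minus AT1G11860 was 0.80 and 1.08 in control and 2.87 and 3.37 in drought, a shift of 2.18, and GLDP1 minus GDCH shifted by 1.03. SHM1 (AT4G37930_at), the serine hydroxymethyltransferase that works with the complex, read 12.23 and 12.09 against 10.26 and 11.87. Both drought arrays were below both controls but differed by 1.61 from each other, so the difference of −1.10 ± 0.40 was not called (adjusted p = 0.0736). Without drought replicate 2 it was −1.90 (adjusted p = 1.1e-05).

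Both measured members of the return to the chloroplast fell. GLYK read 9.13 and 9.29 in control and 7.65 and 7.41 in drought, a fall of 3.20-fold (−1.68 ± 0.14, adjusted p = 5.6e-05). GLU1 (AT5G04140_at), the ferredoxin-dependent glutamate synthase that recaptures photorespiratory ammonia, read 11.07 and 11.15 against 9.14 and 10.05, a fall of 2.86-fold (−1.51 ± 0.23, adjusted p = 0.00139). The 2 GLU1 drought arrays lay 0.91 apart and both over 1 log2 unit below the controls. Set against the peroxisomal step, HPR minus GLYK within each array was 2.43 and 2.85 in control and 3.74 and 3.86 in drought, a shift of 1.16. The pairs of genes set against each other within arrays are from 11 chosen after their values were seen, and every shift given here had the same exact permutation p.

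The size of the calls depended on the arrays used for the spread. With the 4 progressive arrays fitted alone, 6 Calvin cycle and 3 photorespiration members fell, and 11 calls were lost, those of RCA, GAPA, PGK1, FBA2, SBPASE, PRK, RPE, TIM, CP12-1, AT1G11860 and GLU1. The 9 calls kept in every one of the 20 alternative fits were GAPA-2, GAPB, AT1G56190, HCEF1, TKL1, RPI, GDCH, AT1G32470 and GLYK.

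Whether a member changed more at wilting than under moderate drought was tested as the difference of the drought effects. Progressive minus day 1 was called below 0 for 14 members, 9 of the Calvin cycle and 5 of photorespiration, where 7.26% of all probe sets were called below 0. Progressive minus day 10 was called below 0 for 12 members, 7 and 5, where 7.61% of all probe sets were. All 4 of GAPA-2, GAPB, PGK1 and AT1G56190 were among both, as were RPI, HCEF1, TKL1, the 3 called glycine decarboxylase genes, GLYK and GLU1. SBPASE and RPE passed the test against day 1 and missed it against day 10, where the difference was −1.14 ± 0.39 (adjusted p = 0.102) for SBPASE and −0.73 ± 0.21 (adjusted p = 0.0529) for RPE. The difference of day 10 minus day 1 was called for 0 members, where 0% of all probe sets were called either way, and 0 members had an unadjusted p under 0.05. Without progressive drought replicate 1 the Calvin cycle counts were 14 and 12, against day 1 and day 10. Without progressive control replicate 1 the Calvin cycle count against day 10 was 11, of which 10 were below 0. Leaving out day 1 control replicate 2 or drought replicate 2 gave 3 photorespiration members against day 1. Against day 10 there were 2 without day 10 control replicate 1, and 3 without day 10 control replicate 2, day 10 drought replicate 2 or progressive control replicate 2.

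Members with the lowest changes on day 1 also had low changes at wilting. Across the 30 members the day 1 and progressive changes correlated at r = 0.83 (Spearman's rho 0.84), against 0.51 and 0.35 across all probe sets. The day 10 and progressive changes correlated at r = 0.54 (rho 0.54), against 0.29 and 0.34. The changes of RPI, AT1G56190 and AT1G11860 lay at the low end on day 1 and in progressive drought. GGT1 and AGT had the highest changes on day 1 and were at 0.17 and −0.06 in progressive drought. The points are genes measured on the same arrays within each comparison, not independent replicates, and no array is shared between comparisons.

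**Figure D3:**
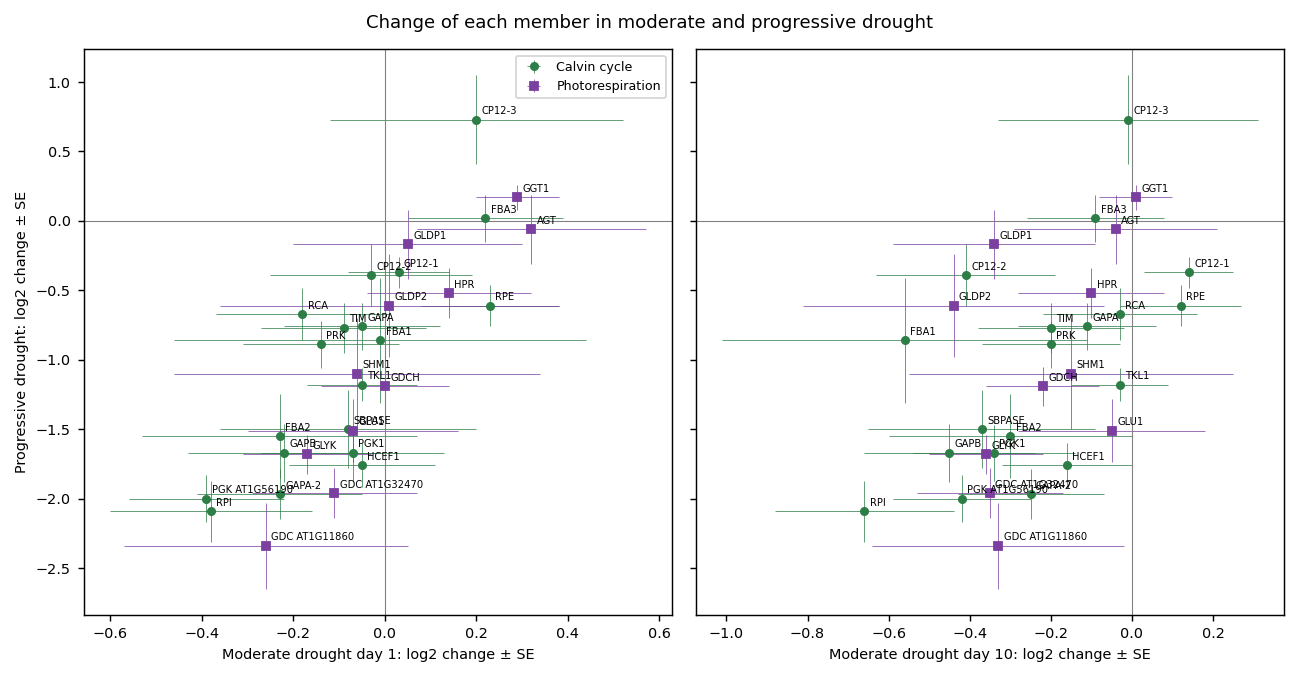
Progressive drought change (y axis, log2) of the 30 members against their change on day 1 (left) and day 10 (right) of moderate drought (x axes, log2, with their own ranges); circles are Calvin cycle members, squares photorespiration members, and bars are ± SE. Changes on day 1 lie between −0.39 and 0.32 and those in progressive drought between −2.34 and 0.73.

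The progressive arrays differed within groups in the clock index, and part of the members differed with it. The index was −2.32 and 0.88 on control replicates 1 and 2 and 2.79 and −1.68 on drought replicates 1 and 2. Its level is not compared across sets, but its range within the 4 arrays of day 1 was narrow, from −2.59 to −2.56. Higher values on both arrays with the higher index, control replicate 2 and drought replicate 1, were found for 11 of 19 Calvin cycle members (57.9%) and 6 of 11 photorespiration members (54.5%), against 29.3% of all probe sets. The reverse held for 5 (26.3%) and 3 (27.3%), against 28.3%. FBA1, GLDP2, AGT and GLYK were among the former and GDCH among the latter. GLYK and GDCH had both drought arrays more than 1 log2 unit below both controls. The part of the index in the progressive changes was not tested.

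**Figure D4:**
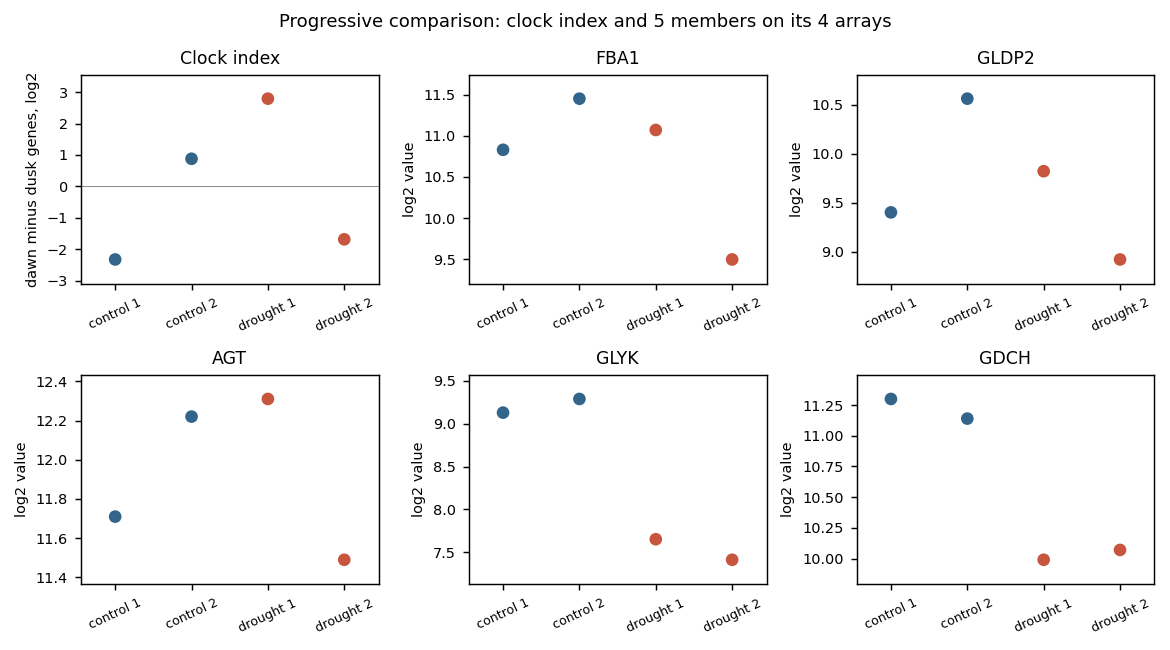
The clock index (mean log2 level of dawn-phased minus dusk-phased genes) and the log2 values of 5 members, chosen after their values were seen, on the 4 progressive arrays, control in blue and drought in red, each panel with its own y axis. FBA1, GLDP2 and AGT are higher on control 2 than control 1 and on drought 1 than drought 2, as the index is. GLYK has the same order within its groups and GDCH the reverse, and both have drought arrays below both controls.

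Other measures also differed between groups. Of the leaf mesophyll markers 4 of 4 fell with a median of −0.67, and their mean level was 13.02 and 13.17 on the control arrays and 12.21 and 12.32 on the drought arrays. On day 1 and day 10 the median of these markers was 0.01 and −0.01. The 4 senescing leaf markers were all above 0 in progressive drought and 1 rose, SGR1, at 2.68 ± 0.38. SAG12, SAG13 and NYC1 were at 0.15, 0.54 and 0.51 and were not called. Mean levels of the 4 were 5.28 and 5.34 in control and 6.05 to 6.50 in drought, and 2 were below the array median in control. Of the 3 phloem companion cell markers 1 rose, with mean levels of 7.97 to 8.25 in control and 8.61 to 9.16 in drought. The xylem markers were above 0 in 5 of 5 genes on day 1, with 0 called. Their mean levels were then 4.91 and 4.96 in control and 5.45 and 5.54 in drought. They were dim, with 4 of the 5 below the array median in control, and 1 of the 5 rose in progressive drought. Of 4 guard cell, 2 bundle sheath and 4 root markers 1 each fell in progressive drought, and 0 of 4 epidermis and 0 of 4 shoot apex and flower markers were called. The ribosomal 25S control probe set read 8.91 and 8.88 in control and 10.75 and 9.53 in progressive drought. The 3′ minus 5′ difference of the actin control sets was 1.41 and 1.25 against 0.80 and −1.05. For ubiquitin control sets this difference overlapped between the groups. It was −0.18 and −0.43 in control against −0.36 and −0.12 in progressive drought for 1 pair of sets. For another pair it was −0.31 and −0.58 against −0.70 and −0.20. On day 1 the ribosomal set read 7.99 and 7.89 in control and 7.44 and 7.55 in drought. The actin difference was 2.39 and 2.03 against 0.99 and 0.34. The ubiquitin differences were 0.08 and 0.31 against 0.01 and 0.05, and 0.09 and 0.06 against −0.05 and −0.34. The part of these measures in the members' falls was not tested.

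Genes that assemble and maintain Rubisco, the enzyme whose small subunits were not analysed here, were mostly lower in progressive drought. Of 11 genes listed and measured, 8 fell and 0 rose, where 14.5% of all probe sets fell and 12.5% rose, and the median was −1.87. The chloroplast co-chaperonin CPN20 fell (−1.56 ± 0.16, adjusted p = 1.6e-04), and 3 loci of the list without a RefSeq symbol had smaller adjusted p. These were AT3G47650 at −2.15 ± 0.11 (5.8e-06), AT5G28500 at −1.89 ± 0.15 (4.1e-05) and AT5G51110 at −1.57 ± 0.15 (1.1e-04). On day 1 and day 10, 0 of the 11 were called and 2 had an unadjusted p under 0.05 each time. The smallest adjusted p on day 1 were those of AT5G28500 at −0.45 and CPN60A1, a subunit of the chloroplast chaperonin, at −0.67 (both 0.441). On day 10 they were those of AT5G51110 at −0.37 (0.447) and CPN20 at −0.37 (0.473).

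Most of the cytosolic and other isoforms of Calvin cycle reactions were not called in any comparison. Of 16 measured of 18 listed, 5 fell and 1 rose in progressive drought, beside 14.5% and 12.5% of all probe sets, with a median of −0.43. The cytosolic fructose bisphosphatase, which draws triose phosphate into sucrose, fell by 2.44 ± 0.14 (adjusted p = 8.9e-06), the largest fall of this list. The others named by the rule were AT5G44520 at −0.96 (adjusted p = 0.00106), the cytosolic triose phosphate isomerase CTIMC at −0.60 (0.00393) and the aldolase FBA8 at −1.04 (0.0123). Outside the naming rule, GAPC1, the cytosolic glyceraldehyde phosphate dehydrogenase, fell by 1.00 (0.0422), and the aldolase FBA6 was the gene that rose, by 0.80 (0.0256). On day 1 and day 10, 0 of the 16 were called, with 2 and 4 at an unadjusted p under 0.05. AT5G44520 at −0.50 (0.356) and the transketolase TKL2 at 0.36 (0.506) had the smallest adjusted p on day 1, and AT3G01850 at 0.31 (0.333) and CTIMC at −0.32 (0.352) on day 10.

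Other genes of photorespiration included its transporters, the catalases and ammonia reassimilation. Of 22 measured of 24 listed, 8 fell and 2 rose in progressive drought, beside the same 14.5% and 12.5%, with a median of −0.10. Of the plastid dicarboxylate transporters, which exchange oxoglutarate, malate and glutamate across the envelope, DIT2.1 fell by 1.74 ± 0.11 (adjusted p = 1.3e-05) and DIT1 fell by 2.14 ± 0.14 (1.4e-05), while DIT2.2, outside the naming rule, was at 0.29 ± 0.15 and not called (0.206). LrgB (AT1G32080), the plastid exporter of glycolate and importer of glycerate, fell by 1.96 ± 0.16 (5.2e-05), and PMDH2, a peroxisomal malate dehydrogenase that supplies reductant to hydroxypyruvate reductase, fell by 0.80 ± 0.14 (0.00259). Outside the naming rule, the other falls were those of GS2 by 1.29 (0.00425), LPD1 by 0.65 (0.0105), BOU by 1.21 (0.0194) and SHM2 by 0.68 (0.0197). The genes that rose, also outside the rule, were CAT3, a catalase, by 0.64 (0.0414) and GLU2, the other ferredoxin-dependent glutamate synthase, by 0.56 (0.00425). GLU2 and GLU1 thus moved in opposite directions. On day 1 and day 10, 0 of the 22 were called and 3 had an unadjusted p under 0.05 each time. CAT3 at 0.66 (0.387) and DIT1 at −0.33 (0.543) had the smallest adjusted p on day 1, and DIT1 at −0.59 (0.161) and DIT2.1 at −0.36 (0.263) on day 10. CAT3 was at 0.64 (0.272) on day 10, so its difference was of similar size in every comparison though called in progressive drought alone.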

How the data were processed

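Young leaf RNA of 12 samples, 2 in each of 6 groups, was measured on Affymetrix ATH1 arrays after 3′ labelling with biotin. The deposited values are log2 expression values that the authors made with RMA from the affy package, per the submitters' processing notes. The sources used here give neither their versions nor the build by which probes were regrouped into loci. RMA takes out background, equalises the distribution of arrays and reduces each probe set to a value. The mean range of sorted values was 0.0501, 0.0586 and 0.0691 in the sets of day 1, day 10 and progressive drought but 0.696 over the 12 arrays together, so each set had been normalised apart. Tests left out 56 control probe sets. All 30 measured members were found in a RefSeq table of locus tags and 25 had a symbol there. No sequence was read, so the planned search of promoter motifs was not run.

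Drought minus control was fitted with limma 3.58.1 (R 4.3.3), using lmFit and a plain eBayes without trend or robust options, with 1 mean per group over all 12 arrays and 6 residual and 2.78 prior degrees of freedom. Differences of effects were contrasts of that fit. Tests were two-sided, adjusted by Benjamini-Hochberg over 21461 probe sets per contrast, and called at an adjusted p under 0.05. The test was tested on simulated data. Members and gene lists were chosen with earlier results of these data known, so no list was given a p. Every member is named, and of each further list up to 4 called genes with the smallest adjusted p, or the 2 with the smallest adjusted p where fewer than 2 were called. Alternatives were the arrays of a comparison alone, array weights, cyclic loess, median centring, leaving out the dimmest probe sets (1 in 3), a trended robust fit, replicate blocks and leaving out each array. With 2 arrays a group, leaving out 1 assumes that the remaining array varies like those of the other groups. Figures were drawn with matplotlib 3.10.9.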

Additional observations from a re-analysis of the deposited data

Results flagged for a closer look

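The drought effects of 26 comparisons of a member differed between treatments in the test of the difference itself, all of them lower in progressive drought, and each value is a log2 difference of effects with its standard error. Against day 1, the reduction phase genes differed by −1.74 ± 0.25 (GAPA-2), −1.45 ± 0.30 (GAPB), −1.60 ± 0.29 (PGK1) and −1.62 ± 0.24 (AT1G56190). The regeneration genes differed by −1.70 ± 0.23 (HCEF1), −1.42 ± 0.39 (SBPASE), −1.13 ± 0.17 (TKL1), −0.84 ± 0.21 (RPE) and −1.71 ± 0.31 (RPI). The photorespiration genes differed by −2.08 ± 0.44 (AT1G11860), −1.19 ± 0.20 (GDCH), −1.85 ± 0.26 (AT1G32470), −1.51 ± 0.20 (GLYK) and −1.44 ± 0.33 (GLU1). Adjusted p ran from 0.00217 for HCEF1 to 0.0464 for SBPASE.

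Against day 10, the reduction phase genes differed by −1.72 ± 0.25 (GAPA-2), −1.22 ± 0.30 (GAPB), −1.32 ± 0.29 (PGK1) and −1.58 ± 0.24 (AT1G56190), and the regeneration genes by −1.60 ± 0.23 (HCEF1), −1.15 ± 0.17 (TKL1) and −1.43 ± 0.31 (RPI). The photorespiration genes differed by −2.01 ± 0.44 (AT1G11860), −0.97 ± 0.20 (GDCH), −1.61 ± 0.26 (AT1G32470), −1.32 ± 0.20 (GLYK) and −1.46 ± 0.33 (GLU1). Adjusted p ran from 0.00259 for HCEF1 to 0.0307 for GAPB. The treatments also differ in plant age and in the set of arrays that was normalised together, which cannot be told apart from the drought itself.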

How the results depend on the processing

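No member was called on day 1 or day 10 in any of the 20 alternative fits. The all-probe-set medians stayed within 0.03 of 0 under every scaling. Arrays of a set had been equalised beforehand, so medians near 0 follow from the scaling and cannot show a shift shared by all probe sets. With the arrays of a comparison alone, 6 Calvin cycle and 3 photorespiration members were called in progressive drought, and 4 and 2 in the difference from day 10. Cyclic loess brought the progressive medians to −0.60 and −0.76 and CP12-1 to 0.01. Leaving out 1 array gave Calvin cycle medians of −0.18 to 0.01 on day 1, −0.35 to −0.11 on day 10 and −1.17 to −0.66 in progressive drought, with 11 to 15 calls there, 6 to 14 against day 1 and 5 to 12 against day 10. For photorespiration these were −0.06 to 0.03, −0.42 to −0.04 and −1.23 to −1.06, with 5 to 7, 3 to 6 and 2 to 6 calls. Over all probe sets, day 1 had 108 rises and 79 falls with its own arrays alone and 93 and 72 with array weights, and day 10 had 0 and 0, and 97 and 61. Progressive drought had 589 and 986 with its own arrays alone. Sign changes among values called in neither fit numbered 39.

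Replicate numbers did not pair the arrays: replicate differences of drought and control had a correlation of 0.0302 for day 1, 0.0623 for day 10 and −0.494 for progressive drought. With the replicate number as a block, 11 Calvin cycle and 5 photorespiration members fell in progressive drought, with the calls of RCA, GAPA, RPE and CP12-1 lost, 6 and 3 differed from day 1, and 4 and 4 from day 10. Over all probe sets that block gave 1 rise and 0 falls on day 1, none of either on day 10, and 2060 rises and 2450 falls in progressive drought. With the progressive numbers crossed, an alternative chosen after seeing the data, 17 and 8 members were called in progressive drought, 12 and 7 against day 1, and 15 and 5 against day 10.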
